A study of Mus musculus with 4 samples.

Results

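The miRNAs described here are mir-22, mir-21a, mir-31, mir-10a and mir-10b, together with Mir22hg, the long noncoding RNA that hosts mir-22. They were chosen by their high share of small RNA reads in these same libraries, so their levels are a description and not a finding. The 5 precursors gave 10 of the 889 mature arms counted in the small RNA libraries, and 8 of these 10 arms reached 100 reads in at least 1 library. Mir22hg is 1 of 16211 genes listed in the mRNA libraries. The cells were tumor-initiating hepatocytes (TICs) of C57BL/6 mice, carrying either a control short hairpin RNA or a short hairpin RNA against the imprinted long noncoding RNA H19. From each condition 1 mRNA and 1 small RNA library was made, 4 in all. The sources used here do not say whether the cells were 1 clone or a pool. Since every condition has 1 library per assay, differences between cultures could not be measured, no p-value was computed, and every interval below covers counting error alone.

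A miRNA is cut from a hairpin precursor by Drosha and Dicer, which leaves a duplex of a 5p arm and a 3p arm. One arm is usually kept by an Argonaute protein and the other is degraded. The kept arm pairs with messenger RNAs mainly through bases 2 to 8 from its 5′ end, the seed, and lowers their stability and translation. miR-21 is raised in many tumors, liver cancer among them. miR-22 is a conserved miRNA of wide expression that is abundant in liver, miR-31 is expressed in many epithelia and acts as a promoter or a suppressor of tumors depending on the tissue, and mir-10a and mir-10b lie inside the Hox gene clusters.

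The small RNA libraries held 7105897 (control) and 10483889 (labelled H19 knockdown) reads on mature arms, and the mRNA libraries held 33578868 and 34061172 reads. H19, the targeted gene, had 43 reads in the control and 40 in the mRNA library labelled H19 knockdown, a scaled ratio of 0.929 (95% interval 0.589 to 1.46). The counts thus do not bear the label out, and each direction below refers to the label. Of 6 hepatocyte marker genes 5 were listed: Apob had 37279 and 30259 reads and Hnf4a 2373 and 2764, while Alb had 129 and 88, Ttr 78 and 51 and Apoa1 58 and 87. All 8 progenitor marker genes were listed. Krt19 had 29919 and 39984 reads, Cd24a 17252 and 18684, Cd44 12498 and 12588, Itga6 1144 and 1193 and Prom1 802 and 762, while Sox9 had 122 and 109, Afp 75 and 44 and Epcam 12 and 11. The hepatocyte miRNA mir-122 had no line in the tables used here and was not analysed. Blood cell miRNAs were near 0, with 2 and 0 reads of mir-142a, 3 and 2 of mir-223 and 4 and 11 of mir-451a. Of 4 blood cell genes, 3 were listed, with 22 and 17 reads of Ptprc, 34 and 14 of Csf1r and 118 and 140 of Cd68. Endothelial mir-126a had 851 and 1038 reads, and 0 of 2 endothelial genes were listed. Fibroblast mir-143 had 803 and 1474 reads, but mir-199a-1 had 43 and 89, mir-145a 8 and 8 and mir-214 4 and 10, and the 1 fibroblast gene listed of 3, Col1a1, had 59 and 42. These levels were measured in bulk, where fewer cells of a type and less RNA per cell cannot be told apart.

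The main arm of each precursor is shown first, because the seed sets which targets a miRNA can pair with. Sequences are from RefSeq (GRCm38.p6), all 5 precursors were matched, and capitals mark bases 2 to 8.
miR-22-3p: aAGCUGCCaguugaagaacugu
miR-21a-5p: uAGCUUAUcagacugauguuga
miR-31-5p: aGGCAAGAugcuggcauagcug
miR-10a-5p: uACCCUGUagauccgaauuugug
miR-10b-5p: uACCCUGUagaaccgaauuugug
The 5 arms carry 4 different seeds. miR-10a-5p and miR-10b-5p share theirs and differ by 1 of 23 bases, U12A, counted from the 5′ end with miR-10a-5p as the reference. Among 1738 mature sequences in the RefSeq table, no other miRNA holds the seed of miR-22-3p, miR-31-5p or the miR-10 pair. miR-21c shares the seed of miR-21a-5p, but neither mir-21c nor mir-21b had any read assigned to a mature arm in either library.

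Hairpins are printed for the precursors whose arm use is compared below, with the main arm in capitals.
mir-22: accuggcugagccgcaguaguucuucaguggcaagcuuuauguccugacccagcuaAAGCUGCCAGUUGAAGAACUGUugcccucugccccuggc
mir-21a: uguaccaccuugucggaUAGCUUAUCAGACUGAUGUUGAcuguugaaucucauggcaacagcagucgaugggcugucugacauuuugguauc
mir-31: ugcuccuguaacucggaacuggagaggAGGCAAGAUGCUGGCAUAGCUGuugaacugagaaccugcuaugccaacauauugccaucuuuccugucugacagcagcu
mir-10b: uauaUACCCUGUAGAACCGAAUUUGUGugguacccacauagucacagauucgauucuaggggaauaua
mir-22 is read from its 3p arm, and the other 4 precursors are read from their 5p arm. The mir-22 hairpin lies at chr11:75463716-75463810 on the plus strand, inside the gene span of Mir22hg (chr11:75461539-75466690). mir-21a lies at chr11:86584067-86584158 on the minus strand, inside the span of Vmp1 (chr11:86583858-86683836), a membrane protein gene of autophagy. mir-31 lies at chr4:88910557-88910662 on the minus strand, inside the span of the RefSeq gene model Gm49890. mir-10a, at chr11:96317165-96317274, is inside the span of Hoxb3, and mir-10b, at chr2:74726070-74726137, is inside the spans of Hoxd3 and Hoxd4. The last 2 hairpins are on the plus strand.

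Levels of the main arms were compared first. The 5 precursors held 53.6% of all mature-arm reads in the control and 54.3% in its counterpart labelled H19 knockdown. mir-22 and mir-21a alone held 48.5% and 49.4%. miR-22-3p was the most read arm of both libraries, with 1953410 reads in the control and 3137270 in the other, or 27.5% (27.46 to 27.52) and 29.9% (29.90 to 29.95) of arm reads. It made up 62.7% and 65.5% of all reads on 3p arms. miR-21a-5p was second in both, with 1447555 and 1986031 reads, 20.4% and 18.9% of arm reads.

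The share fell steeply after these 2 arms. miR-27b-3p, miR-182-5p and miR-30a-5p, which are not members, took ranks 3 to 5 in both libraries with 4.74% to 6.75%. miR-31-5p was sixth in both, with 219483 and 354049 reads or 3.09% and 3.38%. miR-191-5p and miR-99b-5p stood between it and miR-10b-5p in both libraries, and under the H19 knockdown label miR-125a-5p and miR-30d-5p did too. miR-10b-5p had 129835 and 148550 reads, 1.83% and 1.42%, and ranked 9 in the control and 11 in its counterpart. miR-10a-5p was not a dominant miRNA by its reads: it had 6242 and 5589, or 0.0878% and 0.0533%, at ranks 62 and 74. Its nearest neighbors in summed share were miR-320-3p, with 5645 and 6909 reads, and miR-322-5p, with 5314 and 6838.

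**Figure D1:**
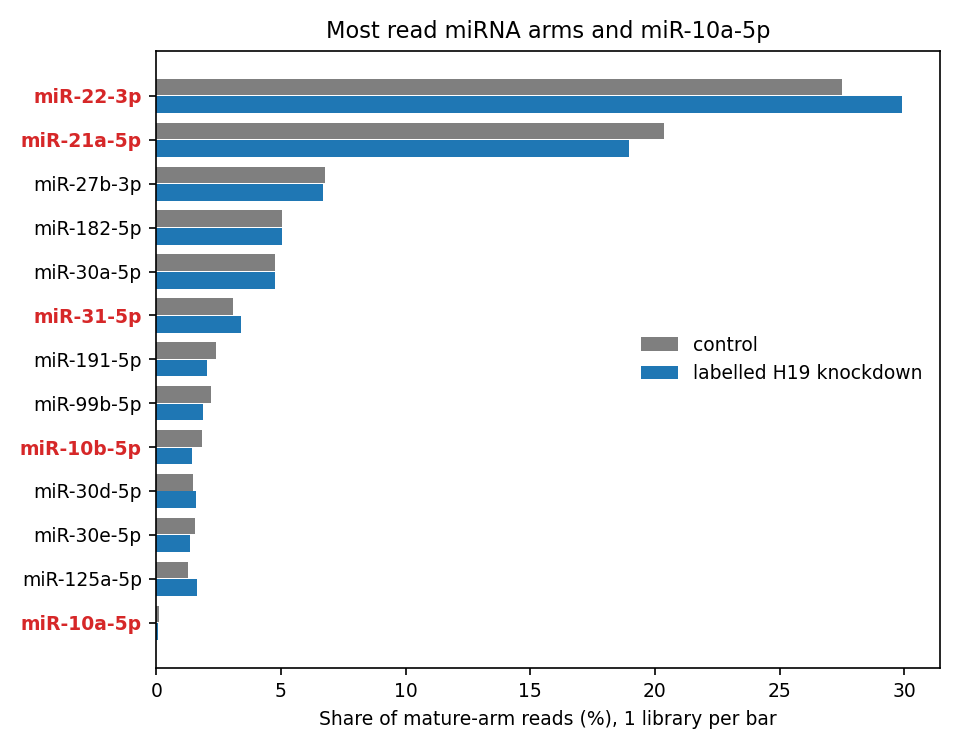
Share of mature-arm reads (%) of the 12 most read arms and of miR-10a-5p, with 1 bar for the control library and 1 for the library labelled H19 knockdown; member names are bold and red. miR-22-3p reached 27.5% and 29.9% and miR-21a-5p 20.4% and 18.9%, while no other arm exceeded 6.75%.

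The comparison between libraries asked whether these miRNAs differ with the H19 hairpin. Ratios were taken after scaling with TMM, which sets the library sizes so that most arms are unchanged. A log2 ratio of 0 means equal levels. miR-22-3p was 1.13-fold higher in the library labelled H19 knockdown (1.125 to 1.129), a log2 ratio of 0.17. miR-31-5p was likewise 1.13-fold higher (1.126 to 1.138), at 0.18. miR-21a-5p was at a ratio of 0.963 (0.961 to 0.965), or -0.05.

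The miR-10 pair was lower. miR-10b-5p was at a ratio of 0.803 (0.797 to 0.809), a log2 ratio of -0.32, and miR-10a-5p at 0.628 (0.606 to 0.652), a log2 ratio of -0.67. Of the 5 main arms, miR-10a-5p therefore had the lowest ratio and the fewest reads. Its log2 ratio was above that of 3.73% of the 295 arms with at least 100 reads, against 13.9% for miR-10b-5p, 40.0% for miR-21a-5p, 69.8% for miR-22-3p and 71.2% for miR-31-5p.

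The 3 minor arms of members that reached 100 reads were lower in the library labelled H19 knockdown, where 63 of 128 minor arms of all precursors were above 0. miR-31-3p had 4984 reads in each library although the second library was deeper, and its ratio was 0.702 (0.675 to 0.730), or -0.51 on the log2 scale. miR-22-5p had 1260 and 1501 reads, a ratio of 0.836 (0.775 to 0.902). miR-21a-3p had 42756 and 52933, a ratio of 0.869 (0.858 to 0.880), and with 0.602% and 0.505% of arm reads it outnumbered the main arm miR-10a-5p in both libraries. miR-10b-3p had 48 and 35 reads and miR-10a-3p had 2 and 7, both under the minimum.

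Of the 8 member arms with at least 100 reads, 3 were at least 1.2-fold lower, namely miR-10a-5p, miR-10b-5p and miR-31-3p, and 0 at least 1.2-fold higher. Among all 295 arms 17.6% were at least 1.2-fold lower and 20.3% at least 1.2-fold higher. At 1.5-fold 1 of the 8 was lower, miR-10a-5p, beside 5.08% of all arms, and 0 were higher, beside 2.71%. At 2-fold 0 of the 8 were lower, beside 2.03%, and 0 were higher, beside 0% of all arms. The median log2 ratio over the 295 arms was 0.02. By exact matches miR-10b-5p was at -0.14, so that 2 of the 8 arms were at least 1.2-fold lower, beside 26.1% of the 295 arms, and 0 higher, beside 25.8%. Each of these differences has no replicate check.

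**Figure D2:**
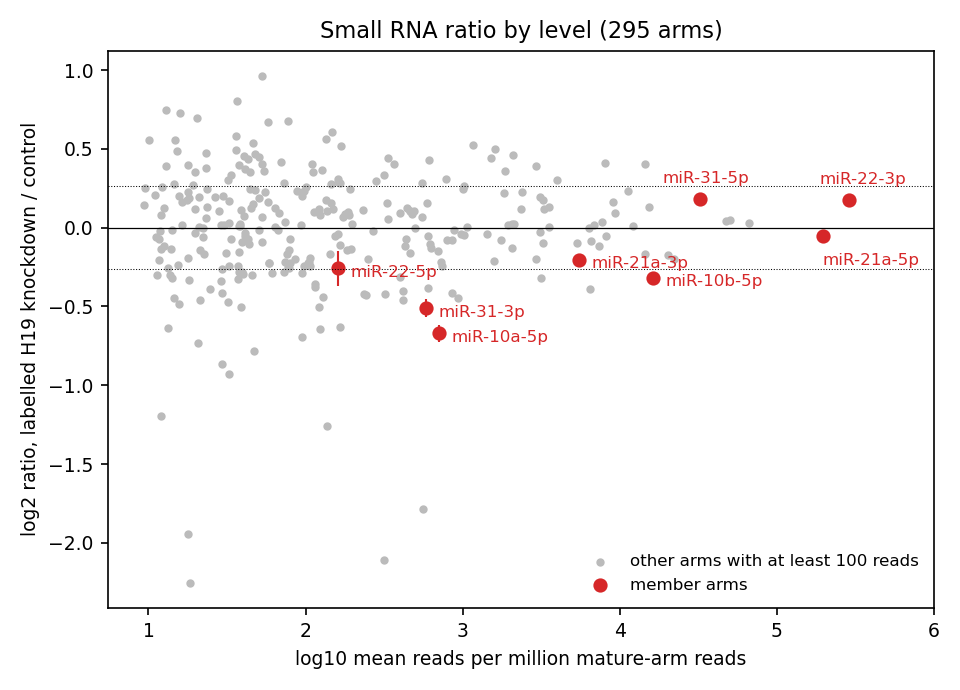
Log2 ratio (labelled H19 knockdown over control), by the log10 mean CPM of arm reads, for the 295 arms with at least 100 reads in 1 library; red points are member arms with their 95% counting intervals and dotted lines mark 1.2-fold. miR-22-3p and miR-21a-5p lie at the right end near 0, while miR-10b-5p (-0.32), miR-31-3p (-0.51) and miR-10a-5p (-0.67) lie below the lower dotted line.

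Ratios between 2 arms of the same library need no scaling. There were 1.35 reads of miR-22-3p per read of miR-21a-5p in the control against 1.58 under the H19 knockdown label, a 1.17-fold difference (1.167 to 1.174). The ratio of miR-22-3p to miR-31-5p was 8.90 in the control and 8.86 in the other library, and its fold of 0.996 had an interval (0.990 to 1.001) that included 1. The proportion of these 2 arms, whose hairpins lie on different chromosomes, thus did not differ beyond counting error when all reads were counted. By exact matches it was 11.98 and 11.56, a fold of 0.965 (0.959 to 0.971), and did differ beyond it. miR-10a-5p per read of miR-10b-5p stood at 0.0481 and 0.0376, 0.783-fold (0.754 to 0.812), so the members of the miR-10 pair did not move by the same factor. Relative to miR-10b-5p, miR-22-3p was 1.40-fold higher (1.39 to 1.41), and relative to miR-10a-5p it was 1.79-fold higher (1.73 to 1.86).

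Because miR-10a-5p and miR-10b-5p differ by 1 base, reads could be placed on either. The deposited tables give a column of unique reads for each arm, which is not defined in the sources used here. The unique share was described over arms with at least 1000 reads in both libraries. In 21 arms of precursors with several copies its median was 1.39% in the control, with an upper quartile of 48.0%. In 103 arms with 1 copy the median was 100%. Reads that were not unique numbered 39 and 38 for miR-10a-5p, whose unique share was 99.4% and 99.3%, and 40 and 37 for miR-10b-5p. The other 8 member arms had 0. A read of miR-10b-5p with an error at position 12 would match miR-10a-5p, and how many such reads there are was not tested.

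The deposited counts also include an exact column for each arm, which is not defined in the sources used here. It was taken by its name as the reads that match the annotated mature sequence exactly. The members differed widely in the share of such reads. miR-22-3p matched exactly in 95.4% of its reads in the control (95.37 to 95.43) and 95% in its counterpart (94.98 to 95.03). In the control this was above 123 of the 124 arms with at least 1000 reads in both libraries, whose median was 40.0%. miR-31-5p was at 70.9% and 72.8%. miR-21a-5p was at 33.2% and 34.2%, slightly under the median of 40.0% and 38.0%.

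The miR-10 pair had low exact shares. miR-10b-5p was at 11.9% and 13.3%, miR-10a-5p at 13.4% and 13.7%, and 26 and 28 of the 124 arms were lower in each library. The difference between libraries ranged over the 5 main arms from -0.403 points for miR-22-3p to 1.95 points for miR-31-5p. The order of the 5 main arms was the same by exact matches as by all reads, but their ranks among all arms moved. By exact matches miR-22-3p held 50.7% and 53.1% of all exactly matching reads, miR-31-5p stood at rank 3 in both libraries, and miR-10b-5p stood at ranks 21 and 23. The tables used here do not say whether the other reads differ in length, in their ends or by a base.

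**Figure D3:**
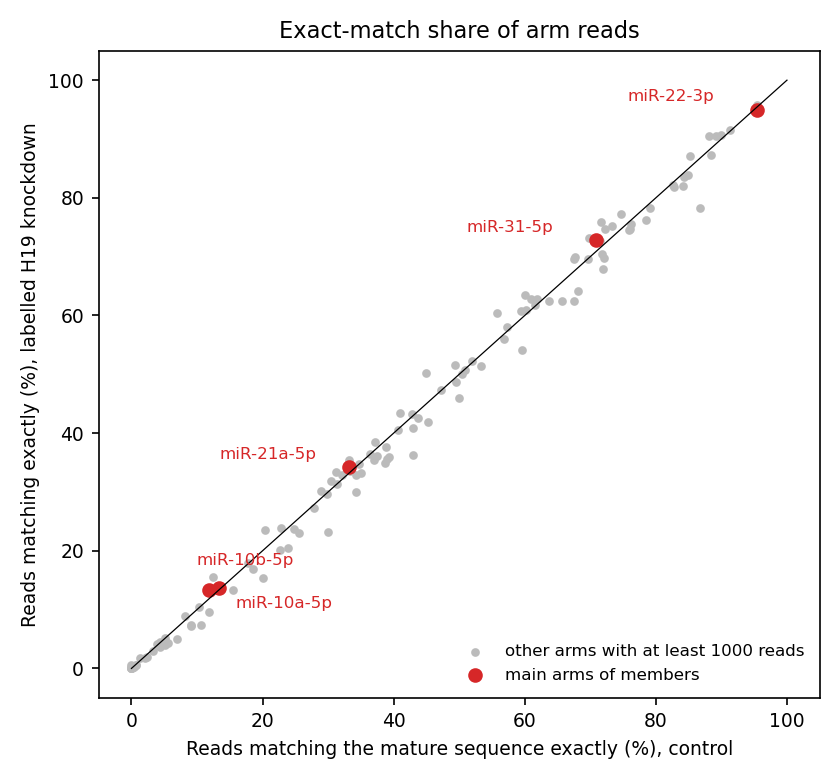
Share of arm reads that match the mature sequence exactly (%), control on the x axis and its counterpart labelled H19 knockdown on the y axis, for the 124 arms with at least 1000 reads in both; red points are main arms of members and the line marks equal shares. miR-22-3p is at the upper end (95.4% and 95%) and the miR-10 pair near the lower end, with all 5 close to the line.

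Arm use within each hairpin was compared next, as reads of the main arm per read of the minor arm. mir-22 had 1550 reads of its 3p arm per 5p read in the control and 2090 under the H19 knockdown label. mir-21a had 33.9 and 37.5 reads of its 5p arm per 3p read. mir-31 had 44.0 and 71.0, the minor arm making up 2.22% (2.16 to 2.28) and 1.39% (1.35 to 1.43) of its arm reads. mir-10b had 2705 and 4244. For mir-10a, 2 and 7 minor-arm reads were too few to give a stable ratio. The median over the 128 precursors with enough reads in both arms was 21.8 and 24.0. By this measure mir-10b and mir-22 ranked 2 and 4 of 128 in the control, and mir-31 and mir-21a ranked 47 and 55.

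Between libraries the balance of mir-31 shifted 1.61-fold toward its main arm (1.55 to 1.68). That of mir-22 shifted 1.35-fold (1.25 to 1.45) and that of mir-21a 1.11-fold (1.09 to 1.12). For mir-10b the shift was 1.57-fold, with an interval (0.994 to 2.50) that included 1. Thus 3 of the 4 measurable members were at least 1.2-fold further toward the main arm, beside 29.7% of all 128 precursors. Among the 3 is mir-10b, whose log2 balance of 0.64 turned to -1.97 by exact matches, from 0 and 4 minor-arm reads. A total of 28.1% of precursors were at least 1.2-fold further toward the minor arm. At 2-fold 0 of the 4 were further toward the main arm, beside 1.56% of precursors. The median difference over all 128 was 0.02 on the log2 scale, with 66 above 0. The shift of mir-31 ranked 8 of 128, and those of mir-10b, mir-22 and mir-21a ranked 11, 26 and 48.

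**Figure D4:**
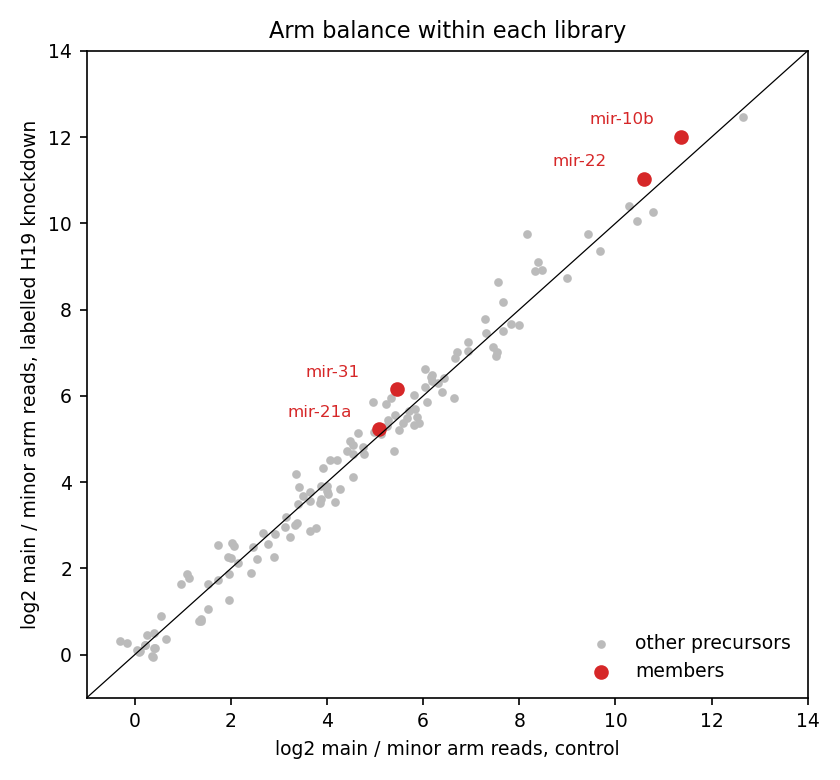
Log2 of main-arm over minor-arm reads in the control (x axis) and its counterpart labelled H19 knockdown (y axis) for 128 precursors; red points are the 4 members with enough minor-arm reads and the line marks equal balance. All 4 red points lie above the line, mir-31 by 0.69 and mir-22 by 0.43, and mir-10b and mir-22 are near the upper end.

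Reads outside both arms were few at these hairpins. They made up 0.174% and 0.168% of the reads of mir-22, 1.16% and 1.33% of mir-21a, 1.31% and 1.18% of mir-31, 0.905% and 1.01% of mir-10a, and 0.639% and 0.694% of mir-10b. Over all precursor lines, repeat copies included, they made up 8.81% and 6.61%. With these reads added, the log2 ratio of each precursor stayed inside the counting interval of its arms, at 0.17 for mir-22, -0.06 for mir-21a, 0.16 for mir-31, -0.67 for mir-10a and -0.32 for mir-10b.

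Host transcripts were then compared in the mRNA libraries. Mir22hg had 1520 control reads and 1144 under the H19 knockdown label, or 45.3 and 33.6 CPM (counts scaled to the library's total over genes). The ratio was 0.752 (0.696 to 0.812), a log2 ratio of -0.41, and 3.65% of 11412 genes with at least 100 reads had a lower one. A total of 9.89% of genes were at least 1.2-fold lower. The host was thus lower while its mature product miR-22-3p was 1.13-fold higher and miR-22-5p was at 0.836. The assays were separate libraries, each with 1 sample per condition, and the difference between host and miRNA was not tested.

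Vmp1 had 15806 and 13798 reads, a ratio of 0.872 (0.852 to 0.892), beside 0.963 for miR-21a-5p and 0.869 for miR-21a-3p. The mRNA table also has a line for Mir31 itself, with 89 and 91 reads (ratio 1.02, interval 0.754 to 1.38), beside 1.13 for miR-31-5p and 0.702 for miR-31-3p. Strand use in the counting is not stated, so reads of overlapping genes cannot be told apart.

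Genes within 50 kb of the mir-22 and mir-21a hairpins lay on both sides of 0. Wdr81, which ends 8908 bases before the mir-22 hairpin, had 3562 and 3687 reads (log2 ratio 0.05). Tlcd2, 4214 bases beyond it, had 1140 and 1067 (-0.10), and Prpf8, a core splicing factor, had 9841 and 11819 (0.26). Rilp, with 137 and 81 reads, was lower (-0.75). Near mir-21a, Tubd1 had 245 and 310 reads (0.34) and Rps6kb1, the S6 kinase, 1618 and 1803 (0.15), and Ptrh2, beyond Vmp1, had 1896 and 1828 (-0.05). Mtap, farther along chromosome 4 from mir-31, was at 0.01, and Fam57a, farther along chromosome 11 from mir-22, was at 0.17.

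Few neighbors of the miR-10 and mir-31 hairpins had counts. Of 12 RefSeq genes within 50 kb of mir-10b, 0 had a line in the mRNA tables, and of 12 near mir-10a 1 did, Hoxb9, with 8 and 13 reads. Of 4 RefSeq genes near mir-31, Gm49890 among them, 0 had a line, against 8 of 11 near mir-22 and 4 of 6 near mir-21a. These counts include the host genes and leave out genes of miRNAs, such as Mir31, which had a line. The share of all RefSeq genes with a line was not computed. miR-10b-5p had 129835 and 148550 reads and miR-31-5p 219483 and 354049. The lowest summed count of any listed gene was 21. The median log2 ratio of the genes of a chromosome was 0.03 for chromosome 11 (912 genes), 0.02 for chromosome 2 (867 genes) and -0.17 for chromosome 4 (646 genes). mir-31 lies on chromosome 4, and its main arm was at 0.18 and its minor arm at -0.51.

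Targets were examined from lists of genes reported for each miRNA. To show the pairing, 1 site is printed for each of 3 lists, from the most counted gene of the list with a match to bases 2 to 8 followed by A in its longest GENCODE vM1 3′ UTR. Capitals mark the match to the seed.
miR-21a site in Nfib: ttaatatttgcatgATAAGCTa
miR-31 site in Rasa1: catgtctcctttgcTCTTGCCa
miR-10 site in Map3k7: gctccaatgtaaagACAGGGTa
The transcription factor Nfib had 2523 and 2426 reads (log2 ratio -0.06). Rasa1, a GTPase activator that switches off RAS, had 1924 and 2220 (0.20), and the kinase Map3k7 had 2960 and 2575 (-0.20).

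The miR-22 list named 23 genes and had 22 with at least 100 reads in 1 library, 11 above and 11 below 0, with a median log2 ratio of 0.00 beside 0.01 for all 11412 genes. Of these 22, 3 were at least 1.2-fold higher and 1 lower, where 10.3% and 9.89% of all genes were. Ccna2, cyclin A2, had 3458 and 4593 reads (0.41), Max, the partner of MYC, 662 and 866 (0.39), and Tet2, a DNA demethylation enzyme, 1285 and 1574 (0.29). Mycbp had 609 and 481 (-0.34), and the most counted gene, Bsg, had 23826 in both libraries (0.00).

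The miR-21a list named 24 genes and had 19 such genes, 11 above and 8 below 0, with a median of 0.11. Of these 19, 2 were at least 1.2-fold higher and 0 lower, beside 10.3% and 9.89% of all genes. Spry2, a feedback inhibitor of ERK signaling, had 335 and 505 reads (0.59), and Tiam1, a RAC exchange factor, had 136 and 197 (0.53). Peli1, a ubiquitin ligase, was at -0.25 and tropomyosin Tpm1, with 28345 and 30670 reads, at 0.11. Pdcd4, a translation inhibitor often studied as a miR-21 target, had 913 and 871 reads (-0.07); it was added after its values were seen.

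The miR-31 list named 22 genes and had 16 such genes, 9 above and 7 below 0, with a median of 0.01, 1 at least 1.2-fold higher and 2 lower. Dicer1 had 819 and 1160 reads (0.50), Stk40 335 and 263 (-0.35), Hif1an, the asparagine hydroxylase that inhibits HIF, 1665 and 1358 (-0.30), and radixin, Rdx, 10291 and 12233 (0.25). The miR-10 list named 21 genes and had 15 such genes, 4 above and 11 below 0, with a median of -0.09, 1 at least 1.2-fold higher and 3 lower. Here Tiam1, also in the miR-21a list, was highest. The transcription factor Klf4 had 1702 and 1251 reads (-0.45) and Cdkn2a, an inhibitor of cyclin-dependent kinases, 143 and 109 (-0.39). Over all genes 51.9% were above 0, while 10.3% passed the 1.2-fold limit upward and 9.89% passed it downward. Klf4, Cdkn2a and Map3k7 lie on chromosome 4, whose 646 genes had a median of -0.17 with 14.9% above 0. Without these 3 the list had 4 genes above and 8 below 0, a median of -0.03 and 1 gene at least 1.2-fold lower. Without genes of chromosome 4 the counts at least 1.2-fold lower were also 0 of 21 for miR-22, 0 of 18 for miR-21a and 1 of 14 for miR-31. The miR-22 gene no longer counted is Mycbp. The share of all genes off chromosome 4 that were this much lower was not computed. Some genes are on several lists.

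All genes with a seed match were described in the same way, over 9870 of the 11412 genes that had a 3′ UTR in the transcript file. The 7 bases GGCAGCT, which pair with the miR-22-3p seed, occurred in 16.0% of these UTRs, ATAAGCT (miR-21a-5p) in 7.65%, TCTTGCC (miR-31-5p) in 12.6% and ACAGGGT (miR-10) in 13.7%, read on the transcript strand. On the lists 15 of 22, 12 of 19, 10 of 15 and 10 of 15 genes held the match. The median log2 ratio of genes with and without the match was 0.02 and 0.01 for miR-22, 0.03 and 0.01 for miR-21a, 0.03 and 0.01 for miR-31, and 0.02 and 0.01 for miR-10. The median with a match was the higher one for each of the 4 seeds. Genes with a match also had longer UTRs, with a median of 2222 against 1049 bases for miR-22, and the part of length in these medians was not tested. A match is a description of letters and not a site of action.

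**Figure D5:**
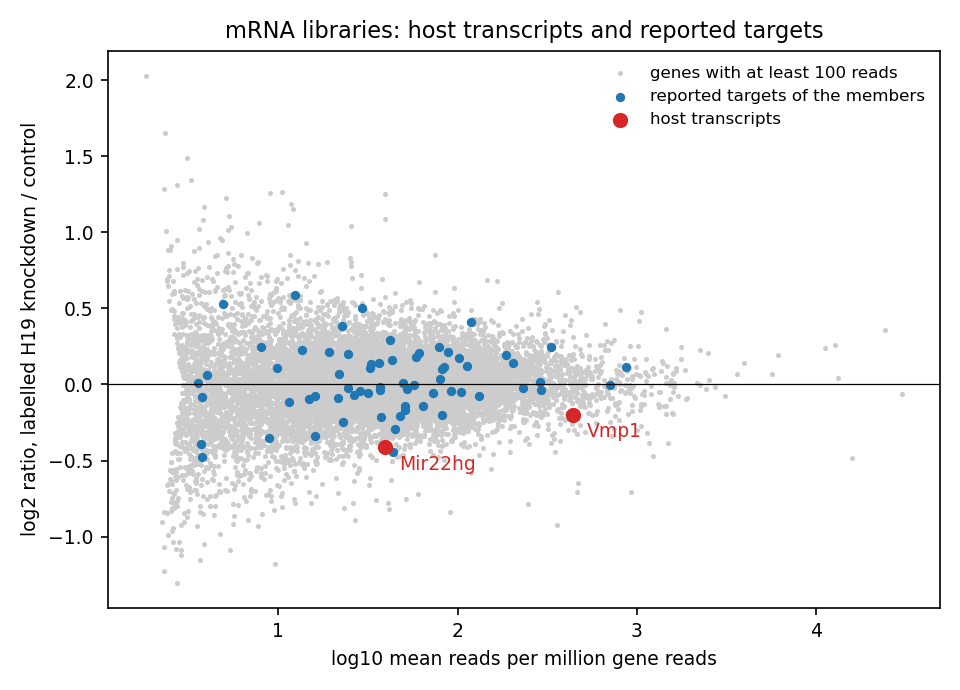
Log2 ratio of mRNA reads (labelled H19 knockdown over control), by the log10 mean CPM, for the 11412 genes with at least 100 reads in 1 library; blue points are the reported targets and red points the host transcripts. Mir22hg lies at -0.41 and Vmp1 at -0.20, and the targets spread on both sides of 0.

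Of 23 genes of miRNA processing and action named, 19 had at least 100 reads in 1 library. Of these, 14 were above and 5 below 0, where 51.9% of all genes were above 0. Their median log2 ratio was 0.07 beside 0.01 for all genes. Among the 19, 2 were at least 1.2-fold higher and 0 lower, where 10.3% and 9.89% of all genes were. The 2 were Dicer1, at 0.50, and Lin28b, an inhibitor of let-7 processing, with 699 and 874 reads (0.32). Drosha, which makes the first cut of the hairpin, had 1407 and 1638 reads (0.22), and Ago2, which holds the kept arm, 3616 and 4307 (0.25). The 5 below 0 were Dgcr8, with 2392 and 2143 reads (-0.16), Ago1 (-0.14), Tarbp2 (-0.11), Ago3 (-0.08) and Zcchc6 (-0.06). Drosha, Ago2 and these 5 were named after their values were seen.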

How the data were processed

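Total RNA of TICs was sequenced as 2 mRNA and 2 small RNA libraries, 1 per condition and assay. STAR 2.5.2b on GRCm38 is given for the mRNA reads in the series design text, and Trimmomatic 0.36 in the submitters' processing notes. The authors deposited raw counts per gene symbol. The counting program is not given in the sources used here. Small RNA reads of 15 to 31 nucleotides were compared with miRBase 21 (series design text), and the authors deposited raw counts per precursor in separate columns for each arm and for reads outside both. The column named expression values equals the 5′ arm, so both arm columns were used. Of repeat copies of a precursor the copy with the most reads was kept, except in shares over all precursor reads or every precursor line. A precursor with no line in 1 table counted as 0 there.

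Sizes were edgeR 4.0.16 TMM effective library sizes (R 4.3.3), computed over all arms or all genes. Log2 ratios had 1 count added to each scaled count. Ratios have exact conditional binomial 95% intervals and shares exact binomial (Clopper-Pearson) ones. The interval of an arm balance is conditional on the main-arm reads, and that of a ratio of 2 main arms comes from the log odds ratio. All cover counting error alone, and PCR duplicates are not separate molecules. Balances required 100 main-arm reads in 1 library and 20 minor-arm reads in all. The members, lists and tests were chosen with earlier results of these data known. Named were all member arms, Mir22hg, the 12 most read arms, arms sharing a seed with a main arm, hosts and neighbors, from each target list the most counted gene and up to 4 with the widest log2 ratios, and 2 processing genes; some genes that this rule names are not reported here. Other genes near the hairpins, the seed-match groups, and the counts by exact matches and without chromosome 4 were chosen after seeing the data. Simulated data held counting error only, which is also what the intervals assume, and were scaled by library totals in place of TMM sizes. Of the 889 arms 147 were altered 3-fold. Of those altered and with at least 100 reads 100% were called 2-fold, and 0 of 159 unaltered arms were. The interval held the simulated fold in 95.3% of all arms with at least 100 reads. For the 16211 genes, with 200 altered, the shares were 100% and 95.3%, with 0 of 11136 unaltered called. The simulation covered neither differences between cultures nor folds as small as those reported here. Scripts ran in Python 3.11.15 (scipy 1.17.1, numpy 2.4.6, matplotlib 3.10.9, pandas 2.3.3).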

Additional observations from a re-analysis of the deposited data

Results flagged for a closer look

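Reads outside both mature arms belong to no comparison of arms. Compared with the control they were higher under the H19 knockdown label at mir-22, with 3408 and 5276 reads and a scaled log2 ratio of 0.12 (0.06 to 0.18), and at mir-21a, with 17531 and 27588 reads and a log2 ratio of 0.14 (0.12 to 0.17). The arms of mir-22 had a higher log2 ratio, 0.17, and its outside share was 0.174% and 0.168%. Those of mir-21a were at -0.06, and its outside share was 1.16% and 1.33%. Over all precursor lines this share was 8.81% and 6.61%. At mir-10b, with 835 and 1039 reads, reads outside the arms were lower after scaling, at -0.20 (-0.33 to -0.06). At mir-31 such reads numbered 2982 and 4294 (0.02, -0.05 to 0.08) and at mir-10a 57 and 57 (-0.50, -1.07 to 0.04), and both intervals included 0.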

How the results depend on the processing

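Scaling shifted all arms together: relative to TMM, the log2 ratio moved by -0.05 with total counts and by 0.02 with DESeq2 1.42.0 size factors. With total counts miR-22-3p was at 0.12, miR-21a-5p at -0.10, miR-31-5p at 0.13 and miR-10b-5p at -0.37. With DESeq2 size factors these were 0.19, -0.039, 0.19 and -0.30. Upper-quartile scaling gave 0.18 for miR-22-3p and -0.048 for miR-21a-5p, and TMM without the members 0.18, -0.046 and, for miR-31-5p, 0.19. Exact matches gave 0.18 for miR-22-3p, -5.44e-05 for miR-21a-5p, 0.23 for miR-31-5p and -0.14 for miR-10b-5p. miR-10a-5p stayed between -0.72 and -0.62. With exact matches miR-10b-3p reversed to 2.13 and the log2 balance of mir-10b, whose main interval included 0, was -1.97, from 0 and 4 minor-arm reads; that of mir-21a was 0.19. The members' share was 46.7% and 48.3% of all precursor reads, with reads outside the arms and on repeat copies included. It was 68.6% and 70.3% of exact matches, and 50.9% and 51.4% of arm reads with every precursor line counted. At 1.5-fold 1 of 8 member arms was lower, beside 5.08% of all arms. By exact matches 2 of 8 were at least 1.2-fold lower, beside 26.1% of all arms. With total counts 4 of 8 were, beside 70 of 295 arms. With a minimum of 20 reads 4 of 9 were, beside 101 of 444 arms. Of 206 alternative values 165 stayed within the main interval or limit, 40 moved beyond it and 1 reversed. This tally is not a measure of stability. The limit for the target and seed-match medians was wider than most of these medians, and a few added counts can hardly move an arm with many reads. Every main arm except miR-10a-5p moved beyond its interval with total counts, with DESeq2 size factors and with exact matches. The cause of the shifts with exact matches was not tested. No paired analysis was possible because each group held 1 library.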
